A study of Mus musculus with 11 samples.

Results

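A set of 10 genes of milk secretion were followed in the epithelium of the pubertal mouse mammary gland, chosen by name and mapped through the gene identifiers of the count table, which held 27179 genes. They were the caseins Csn1s1, Csn1s2a, Csn2 and Csn3, the whey and secreted proteins Wap, Lalba and Wfdc18, and the milk fat globule proteins Mfge8, Btn1a1 and Xdh. All 10 were present in the table, and 8 passed the filter on low counts that preceded testing. Csn1s2a and Wap did not pass it.

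RNA-seq was done on cells of untreated C57BL/6 mice aged 5 weeks that carried E-cadherin-GFP. Terminal end buds (TEBs), the club-shaped growing tips of the pubertal ducts, were micro-dissected apart from ducts, and from each the lineage-negative, CD29+ CD24+ cells were sorted into luminal cells with high Ecad-GFP and basal cells with low Ecad-GFP. There were 3 libraries of basal duct, 3 of basal TEB, 3 of luminal TEB and 2 of luminal duct, numbered 1 and 3. Each came from at least 2 pooled mice, and the authors had dropped the remaining luminal duct sample because it held too few cells. All groups were pubertal, so there was no lactating reference for the levels below, and GFP level was the only separation of the lineages within the gate. The basal keratin and muscle markers Krt5, Krt14, Krt17, Trp63, Acta2 and Myh11 together reached 14660 to 18419 CPM (counts scaled to library size) in basal duct, 5241 to 8159 in basal TEB, 80.7 to 222 in luminal duct and 13.1 to 24.1 in luminal TEB. The luminal markers Krt8, Krt18, Krt19, Epcam and Cdh1 together reached 11042 to 16605 CPM in luminal duct, 12266 to 13678 in luminal TEB, 707 to 806 in basal duct and 529 to 538 in basal TEB. Both lists followed the labelled lineage in all 11 libraries. Libraries held 27989137 to 49221436 counts, and 4.34% to 37.5% of the counts were mitochondrial, with basal TEB replicate 1 and luminal duct replicate 3 (28.5%) at the top.

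Milk proteins are made by alveolar cells of the luminal lineage in pregnancy and lactation. Prolactin acts through its receptor Prlr and the kinase Jak2 on Stat5a and Stat5b, which bind TTCNNNGAA (the GAS motif) near milk genes, and glucocorticoid receptor and Elf5 act with them. Caseins carry calcium and phosphate in micelles, kappa-casein (Csn3) holds the micelle in suspension, Lalba is a subunit of lactose synthase, and Btn1a1 and Xdh act in the budding of lipid droplets from the cell. Mfge8, also called lactadherin, is a bridging protein for apoptotic cells as well as a milk fat globule protein.

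The promoters below are from RefSeq (GRCm38.p6, the build named mm10 by the authors) and each covers the 250 bases before the gene's start as that table places it. For Csn2 this start lies a little inside the gene's span, so that 4 bases of the window are within it. Of the 10 genes, 7 had an entry. A few are shown because they come from the genes with the sharpest contrasts in level: Csn1s1 and Csn2, adjacent casein genes with unequal counts, and Wfdc18 and Mfge8, the highest whey and fat globule genes. Capitals mark TTCNNNGAA and TATAAA.
Csn1s1 promoter, chr5:87665958-87666207, plus strand: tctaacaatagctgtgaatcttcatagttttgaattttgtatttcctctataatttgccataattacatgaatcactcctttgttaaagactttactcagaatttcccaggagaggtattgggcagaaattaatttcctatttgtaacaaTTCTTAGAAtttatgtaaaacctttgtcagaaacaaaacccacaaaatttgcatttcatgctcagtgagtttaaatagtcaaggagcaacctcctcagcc
Csn2 promoter, chr5:87699426-87699675, minus strand: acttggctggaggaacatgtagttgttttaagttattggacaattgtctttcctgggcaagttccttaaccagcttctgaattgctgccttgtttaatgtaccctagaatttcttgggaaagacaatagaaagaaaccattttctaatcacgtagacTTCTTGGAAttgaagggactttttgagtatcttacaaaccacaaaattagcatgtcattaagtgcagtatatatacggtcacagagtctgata
Wfdc18 promoter, chr11:83708754-83709003, plus strand: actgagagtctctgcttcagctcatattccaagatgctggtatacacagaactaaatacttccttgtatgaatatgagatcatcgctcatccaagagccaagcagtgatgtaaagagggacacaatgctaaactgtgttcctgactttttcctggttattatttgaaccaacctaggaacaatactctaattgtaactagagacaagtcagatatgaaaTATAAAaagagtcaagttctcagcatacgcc
Mfge8 promoter, chr7:79149061-79149310, minus strand: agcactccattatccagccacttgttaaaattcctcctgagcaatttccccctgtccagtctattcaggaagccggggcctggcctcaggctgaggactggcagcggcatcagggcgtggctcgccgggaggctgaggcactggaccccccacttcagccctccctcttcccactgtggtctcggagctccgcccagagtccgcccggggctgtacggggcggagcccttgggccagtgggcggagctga
TTCNNNGAA was found 100 bases before the start of Csn1s1 and 93 bases before that of Csn2, searching both strands. The same letters were present in 6.76% of 18458 promoter windows of this length. TATAAA lay 31 bases before the start of Wfdc18 and was present in 12.1% of the windows. Neither motif was found in this window of Csn1s2a, Wap, Lalba or Mfge8, and the window of Lalba lies within the gene's span. The windows of Csn1s1, Csn2 and Wfdc18 were 32.8%, 36.8% and 38.4% G and C, against 65.2% for Mfge8.

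Levels of the 10 genes covered a wide span, and the genes that dominate milk were among the lowest. Per kilobase of gene length (RPKM, scaled by the trimmed mean of M-values, TMM), Mfge8 led in basal cells at 726 ± 79.5 (SD over 3 libraries) in ducts and 698 ± 23.3 in TEBs. Wfdc18, which encodes a small secreted protein with a WAP domain, led in luminal cells at 371 ± 20.4 (SD over 2 libraries) in ducts and 168 ± 37.7 (3 libraries) in TEBs. Csn3 came next in every group, at 48.7 ± 64.0 RPKM (SD, n = 3) in basal duct, 255 ± 73.3 (n = 3) in basal TEB, 231 ± 13.2 (n = 2) in luminal duct and 90.8 ± 27.9 (n = 3) in luminal TEB. In luminal duct its library values lay between those of Wfdc18 and Mfge8 with no overlap, whereas in luminal TEB they overlapped those of Mfge8. In basal duct they overlapped those of Wfdc18, the next gene, and in basal TEB they overlapped no neighbour. Among all genes tested in a group, the mean RPKM of Csn3 was at percentile 98.7 in basal TEB, 98.5 in luminal duct, 96.2 in luminal TEB and 92.2 in basal duct.

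The other caseins stood far lower in these cells. Csn1s1 reached 2.53 ± 1.72 RPKM in the 2 luminal duct libraries and 1.93 ± 0.636 in the 3 of basal TEB. Csn3 made up 98.0% to 100% of all counts on the 4 caseins in each library. Of the remaining caseins, Csn1s1 held 801 counts over the 11 libraries, Csn1s2a 52 and Csn2 50, against 96543 for Csn3. Wap, the gene of whey acidic protein, held 5 counts in all, every one in luminal TEB replicate 2.

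The 10 genes together took 0.131% to 0.195% of counts in basal duct, 0.114% to 0.211% in basal TEB, 0.0947% to 0.107% in luminal duct and 0.0376% to 0.0647% in luminal TEB. Mfge8 supplied most of this in basal cells, 88.5% to 96.7% of the members' counts in ducts and 73.6% to 82.7% in TEBs. Its share was 38.8% to 39.6% in luminal duct and 35.1% to 37.7% in luminal TEB. Csn3 supplied 1.19% to 10.5% of the members' counts in basal duct, 16.4% to 25.8% in basal TEB, 30.9% to 36.7% in luminal duct and 34.1% to 36.8% in luminal TEB.

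**Figure D1:**
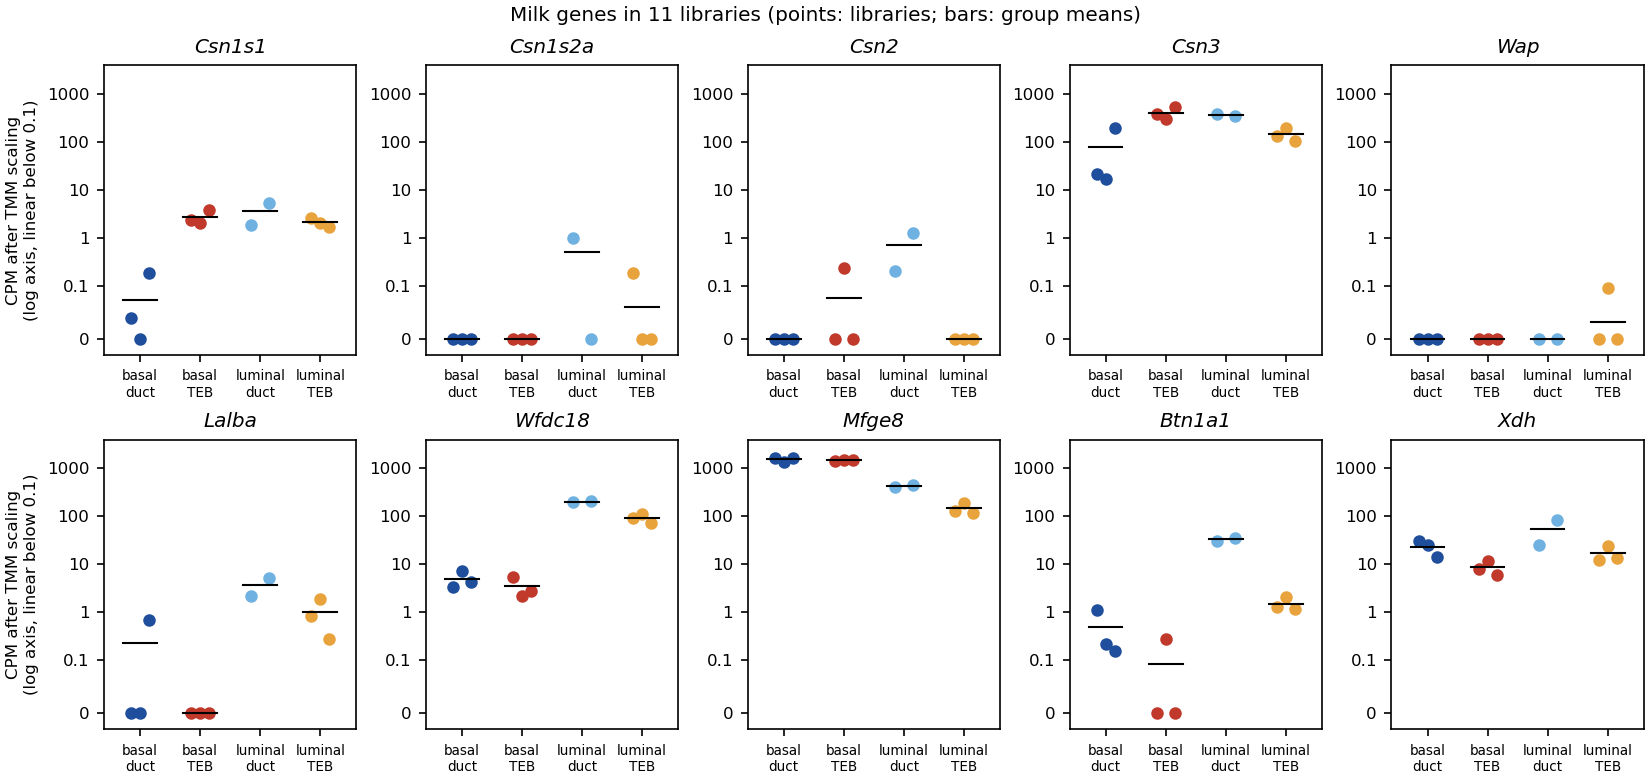
Level of each of the 10 milk genes in CPM after TMM scaling (log axis, linear below 0.1) in the 11 libraries, by group; points are libraries and bars group means. Csn3 and Csn1s1 sit low in basal duct and high in basal TEB, Wfdc18 and Btn1a1 are high in luminal duct, and Mfge8 is highest in both basal groups.

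Csn3 was high in basal cells of the end bud. Its levels were 393, 299 and 532 CPM in basal TEB replicates 1 to 3, and 21.0, 16.6 and 196 CPM in basal duct replicates 1 to 3. Luminal duct held 384 and 355 CPM, and luminal TEB 135, 194 and 106 CPM. The basal groups did not overlap, with TEB above duct, and the luminal groups did not overlap either, with TEB below duct. Ordered by mean, basal TEB and luminal duct came first and overlapped, and luminal TEB and basal duct came last and overlapped.

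The basal TEB mean of Csn3 was 5.24-fold that of basal duct, a log2 fold change of 2.39 ± 0.75 (SE) that did not pass the edgeR quasi-likelihood test over all genes (Benjamini-Hochberg adjusted p, FDR = 0.176). Basal duct replicate 3 set the size of that change: without it the log2 fold change was 4.44 (edgeR FDR = 0.000719). With limma voom on all libraries it was 3.31 (FDR = 0.00673). Of 20 alternatives, only these 2 called the change, and leaving out 1 library moved it between 1.91 and 4.44. In luminal cells the change from duct to TEB was -1.35 ± 0.79 (edgeR FDR = 0.406). The difference between the changes in the lineages was 3.74 ± 1.08 on the log2 scale (edgeR FDR = 0.164), and 5.79 without basal duct replicate 3 (edgeR FDR = 0.00156). That difference passed in 3 of 19 alternatives. In bulk libraries such as these, fewer cells of a type and less RNA per cell cannot be told apart.

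Values of other genes moved with basal duct replicate 3. Its summed level of the luminal progenitor markers Elf5, Tspan8, Aldh1a3, Cd14, Prom1 and Kit was 79.5 CPM, against 33.2 and 45.8 CPM in the other basal duct libraries and 64.6 to 95.7 CPM in basal TEB. All 6 of these markers had counts in it, as in replicate 1, and 5 had counts in replicate 2. Kit alone gave 60.3 CPM in replicate 3, against 11.1 and 26.9 CPM in replicates 1 and 2. Aldh1a3 and Prom1 were also highest in replicate 3 among basal duct libraries. Elf5 (0.0257 CPM, 1 count) and Cd14 (0.847 CPM) were lowest in it, and Tspan8 lay between the others. Replicate 3 was also the only basal duct library with Lalba counts. It held Ltf at 2.10 CPM and Muc1 at 2.92 CPM, both at most 0.0789 CPM in the other basal duct libraries. The summed general luminal markers went the other way, with 707 CPM in replicate 3 and 743 and 806 CPM in the others. Their part in the Csn3 level was not tested.

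The basal level of Csn3 was set beside that of genes nearly exclusive to luminal cells. These were picked for a low basal level, so their low share was fixed by the choice and is a description only. Genes at least 5 log2 units lower in basal cells, past FDR 0.05 and averaging 5 or more log2 CPM in luminal cells, numbered 149 in TEBs and 124 in ducts. Their basal level was 0.847% of the luminal level in TEBs at the median (10th to 90th percentile, 0.240% to 2.61%) and 0.969% in ducts (0.115% to 2.51%). Csn3 in basal cells stood at 281% of its luminal level in TEBs and 21.1% in ducts. The non-coding gene 1700066N21Rik, which overlaps Csn3, had no counts in any library.

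Csn1s1, the alpha-S1 casein gene, followed Csn3 in basal cells at a far lower level. Basal duct held 0.0399, 0 and 0.180 CPM (2, 0 and 7 counts), and basal TEB 2.37, 2.06 and 3.75 CPM. Luminal duct held 1.87 and 5.31 CPM, and luminal TEB 2.62, 2.00 and 1.66 CPM. Basal duct stood apart below the other 3 groups, which overlapped one another.

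The change of Csn1s1 from basal duct to basal TEB was 5.17 ± 1.40 (SE, log2), with an edgeR FDR of 0.114. DESeq2 called it (FDR = 4.94e-05), as did limma voom (FDR = 0.0190), and only these 2 of 20 alternatives did. In ducts the basal level was lower than the luminal level, with a log2 difference of -5.56 ± 1.46 (SE; edgeR FDR = 0.0169). That call was lost without basal duct replicate 1 (edgeR FDR = 0.0583), without luminal duct replicate 3 (edgeR FDR = 0.0616) and with only the duct groups in the model (edgeR FDR = 0.112). Without basal duct replicate 3 the difference was -7.21 (edgeR FDR = 0.0147). In TEBs the lineages differed by 0.38 ± 1.16 (SE, log2; edgeR FDR = 0.853). The basal level was 2.04% of the luminal one in ducts and 130% in TEBs.

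Csn2 (beta-casein) and Csn1s2a (an alpha-S2 casein) were detected in few libraries. Csn2 had 9 and 30 counts in luminal duct replicates 1 and 3 and 11 counts in basal TEB replicate 2, with 0 in the other 8 libraries. Set against a floor of 3 counts over the group, which covers counting error only, Csn2 was at least 28.4-fold lower in luminal TEB than in luminal duct and at least 24.2-fold lower in basal duct than in luminal duct. Luminal duct replicate 3 carried most of these counts, and without it the bounds were 10.2-fold and 8.68-fold. Without luminal duct replicate 1 they were 61.3-fold and 52.3-fold. Neither difference passed the edgeR test (FDR = 0.241 and FDR = 0.104). Csn1s2a had 44 counts in luminal duct replicate 1 and 8 in luminal TEB replicate 1, and none elsewhere, including luminal duct replicate 3.

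These genes lie in 1 cluster on chromosome 5 of GRCm38. Csn1s1 spans 87666208 to 87682578, Csn2 87692619 to 87699429, Csn1s2a 87774450 to 87788798 and Csn3 87925579 to 87932550. Csn1s2b, a second alpha-S2 casein and a close copy of Csn1s2a whose reads could be shared with it, had 139 counts in luminal duct replicate 1, 9 and 14 in luminal TEB replicates 1 and 2, and none in the other 8 libraries. Both alpha-S2 caseins were thus highest in luminal duct replicate 1 and at 0 in all 6 basal libraries. Odam, a non-casein gene between them and Csn3, had 152 counts over 6 libraries, 49 of them in basal TEB replicate 2 and 31 in luminal duct replicate 3. Prr27 and Gm7337, between the alpha-S2 caseins and Odam, had no counts. Of the neighbours on either side, Sult1e1 had 1 count and Mir3969, BC051076 and Cabs1 had none. High counts in the cluster were found at Csn3, the last casein gene.

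**Figure D2:**
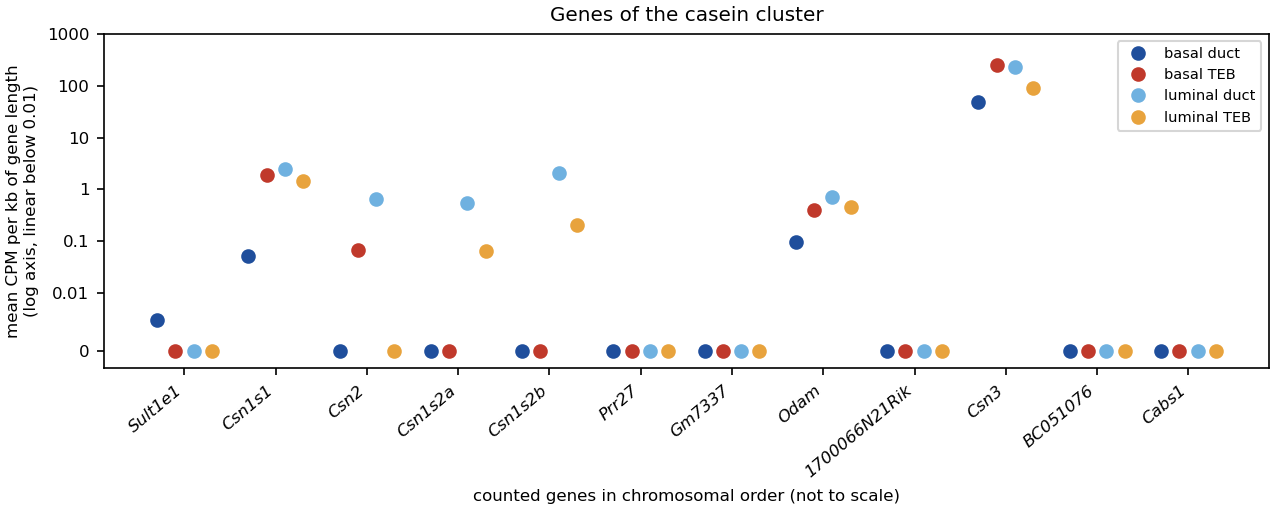
Mean level of the counted genes of the casein cluster in each group, in CPM per kilobase of gene length (log axis, linear below 0.01), in chromosomal order and not to scale. Csn3 is the one gene above 10 in all 4 groups, and Csn1s1 is near 0.05 in basal duct but between 1.48 and 2.53 in the other groups.

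The other members lie apart from the caseins and from one another on GRCm38, except that both Wap (6635483 to 6638654) and Wfdc18 (83709004 to 83711360) are on chromosome 11. Lalba is on chromosome 15 (98480400 to 98482934), Mfge8 on chromosome 7 (79133768 to 79149060), Btn1a1 on chromosome 13 (23456984 to 23465914) and Xdh on chromosome 17 (73883895 to 73950397). RefSeq places Gm52036 and a transfer RNA gene over Btn1a1 and Gm18068 over Xdh, and reads from these could not be told apart by strand.

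Among the whey genes, Wfdc18 was luminal. It stood at 194 and 210 CPM in luminal duct, at 90.6, 112 and 71.5 CPM in luminal TEB, at 3.33, 7.21 and 4.13 CPM in basal duct and at 5.43, 2.15 and 2.74 CPM in basal TEB. The luminal groups did not overlap each other or the basal groups, and the basal groups overlapped. Basal cells were lower, with log2 differences of -5.37 ± 0.43 (SE) in ducts (edgeR FDR = 5.62e-06) and -4.77 ± 0.41 in TEBs (edgeR FDR = 4.84e-06), and both calls held under all 20 alternatives. The basal level was 2.42% of the luminal one in ducts and 3.76% in TEBs. Within luminal cells the TEB mean was 2.21-fold below the duct mean, -1.14 ± 0.38 (SE, log2; edgeR FDR = 0.156), and within basal cells the change was -0.54 ± 0.36 (edgeR FDR = 0.530).

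Lalba (alpha-lactalbumin) was mostly luminal at a low level. Luminal duct held 2.16 and 5.10 CPM and luminal TEB 0.829, 1.89 and 0.270 CPM. Basal duct held 0, 0 and 0.667 CPM, and basal TEB had no counts. It was at least 33.7-fold lower in basal TEB than in luminal TEB, and at least 6.85-fold lower than in basal duct, by the same floor. Without luminal TEB replicate 2 the first bound was 17.7-fold. Neither passed the edgeR test (FDR = 0.0580 and FDR = 0.329), and all 26 basal duct counts came from replicate 3.

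Of the fat globule genes, Mfge8 had the most counts of any member. Basal duct held 1634, 1350 and 1650 CPM and basal TEB 1426, 1505 and 1518 CPM, and these ranges overlapped. Luminal duct held 406 and 455 CPM and luminal TEB 131, 190 and 118 CPM, with no overlap between them or with the basal groups. Basal cells were higher by 1.84 ± 0.25 (SE, log2) in ducts (edgeR FDR = 0.000228) and by 3.34 ± 0.23 in TEBs (edgeR FDR = 9.84e-07), under all 20 alternatives in both. Its basal level was 359% of the luminal one in ducts and 1015% in TEBs.

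Mfge8 was also the only member called between TEB and duct. In luminal cells it was 2.95-fold lower in TEBs, -1.56 ± 0.23 (SE, log2; edgeR FDR = 0.0110). The call was lost without luminal TEB replicate 1 (-1.51, edgeR FDR = 0.0638), without luminal TEB replicate 3 (-1.45, edgeR FDR = 0.0660) and with no composition normalization (-1.16, edgeR FDR = 0.187). In basal cells the change was -0.06 ± 0.21 (SE, log2; edgeR FDR = 0.943). The difference between the changes was 1.50 ± 0.31 (SE, log2) and did not pass (edgeR FDR = 0.0675).

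Btn1a1, the butyrophilin of the fat globule membrane, was nearly confined to one group. It stood at 31.0 and 34.4 CPM in luminal duct and at 1.26, 2.06 and 1.14 CPM in luminal TEB. Basal duct held 1.12, 0.210 and 0.154 CPM and basal TEB 0, 0.274 and 0 CPM. The luminal duct libraries lay above all 9 others. The luminal TEB mean was 22.0-fold below the luminal duct mean, -4.46 ± 1.22 (SE, log2; edgeR FDR = 0.0959). This was called by DESeq2 (FDR = 0.00110), by limma voom (FDR = 0.00626), by edgeR on the luminal groups alone (FDR = 0.0282) and without basal TEB replicate 2 (edgeR FDR = 0.0490). Only these 4 of 20 alternatives called it. Basal cells were lower than luminal cells in ducts, -6.03 ± 1.30 (SE, log2; edgeR FDR = 0.00552), under all 20 alternatives. Without basal duct replicate 1 this difference was -7.46. They were also lower in TEBs, -3.78 ± 1.20 (SE, log2; edgeR FDR = 0.0376), a call kept in 10 of 19 alternatives and lost when any one luminal library was left out (edgeR FDR = 0.0603 to 0.0956) or when basal TEB replicate 1 or 3 was (edgeR FDR = 0.0692 and 0.0902).

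Xdh, xanthine dehydrogenase, which also has a housekeeping role in purine breakdown, was measured in all groups. Basal duct held 29.7, 25.2 and 14.3 CPM and basal TEB 8.08, 11.7 and 5.83 CPM. Luminal duct held 25.6 and 84.2 CPM and luminal TEB 12.3, 24.2 and 13.6 CPM. TEB libraries were below duct libraries in both lineages with no overlap, by -1.43 ± 0.48 (SE, log2; edgeR FDR = 0.202) in basal cells and -1.71 ± 0.52 (edgeR FDR = 0.125) in luminal cells. The luminal duct libraries differed 3.29-fold, and each moved the luminal change: it was -2.33 (edgeR FDR = 0.0188) without luminal duct replicate 1 and -0.61 (edgeR FDR = 0.754) without replicate 3. The lineages did not differ past the threshold in ducts (-1.25 ± 0.51, edgeR FDR = 0.106) or in TEBs (-0.97 ± 0.47, edgeR FDR = 0.163). The difference in ducts also rested on those libraries, with -1.87 (edgeR FDR = 0.0209) without luminal duct replicate 1 and -0.15 (edgeR FDR = 0.912) without replicate 3.

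Few members were called between TEB and duct. In basal cells 0 of 8 passed FDR 0.05 by edgeR, 4 had an unadjusted p under 0.05, and DESeq2 and limma voom called 1 and 2. Of all genes tested, 1.32% were called. The groups did not overlap for 3 of the 8 members (Csn1s1 and Csn3 higher, Xdh lower in TEBs), against 20.8% of all genes (8.88% higher and 11.9% lower). In luminal cells 1 of 8 passed, being lower, against 1.41% of all genes (0.771% lower), and 7 of 8 did not overlap, against 43.7%. All 7 were lower in TEBs, the direction of 17.4% of all genes, and the exception was Csn1s1. The members' median log2 fold change was -1.64 in luminal cells, also with Csn2 placed at its bound, beside 0.04 for all genes tested. It was -0.30 in basal cells, beside -0.03.

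Between lineages, 4 of 8 members were called in ducts (Mfge8 higher in basal cells, Csn1s1, Wfdc18 and Btn1a1 lower) against 22.3% of all genes (12.6% higher and 9.71% lower), and 7 did not overlap against 46.0%. In TEBs 3 of 8 were called (Mfge8 higher, Wfdc18 and Btn1a1 lower) against 25.1% (13.2% higher and 11.8% lower), and 6 did not overlap against 49.8%. No member was called for the difference between the lineages' TEB changes by edgeR (4 had an unadjusted p under 0.05, and DESeq2 and limma voom called 3 and 2), against 0.443% of all genes.

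**Figure D3:**
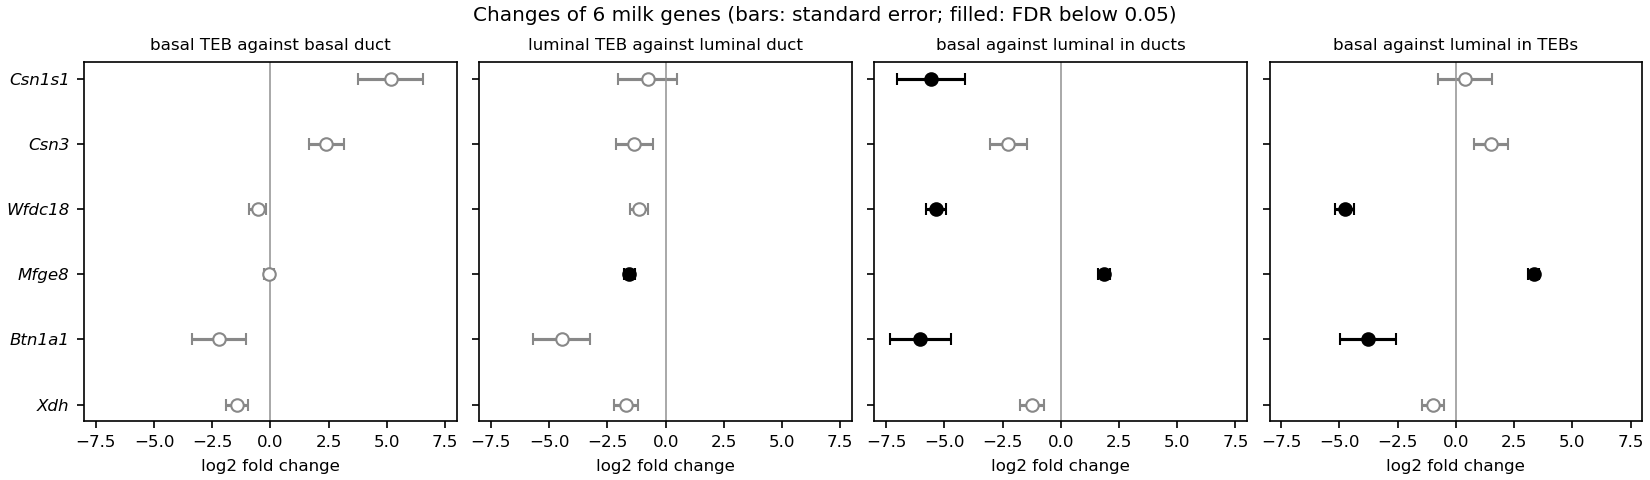
Log2 fold changes of the 6 members with counts in all 4 groups, in the 4 comparisons; bars are standard errors and filled points passed FDR 0.05. Csn1s1 and Csn3 lie at 5.17 and 2.39 in basal TEB against duct without passing, and Mfge8 at -1.56 is the one filled point in luminal TEB against duct.

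**Figure D4:**
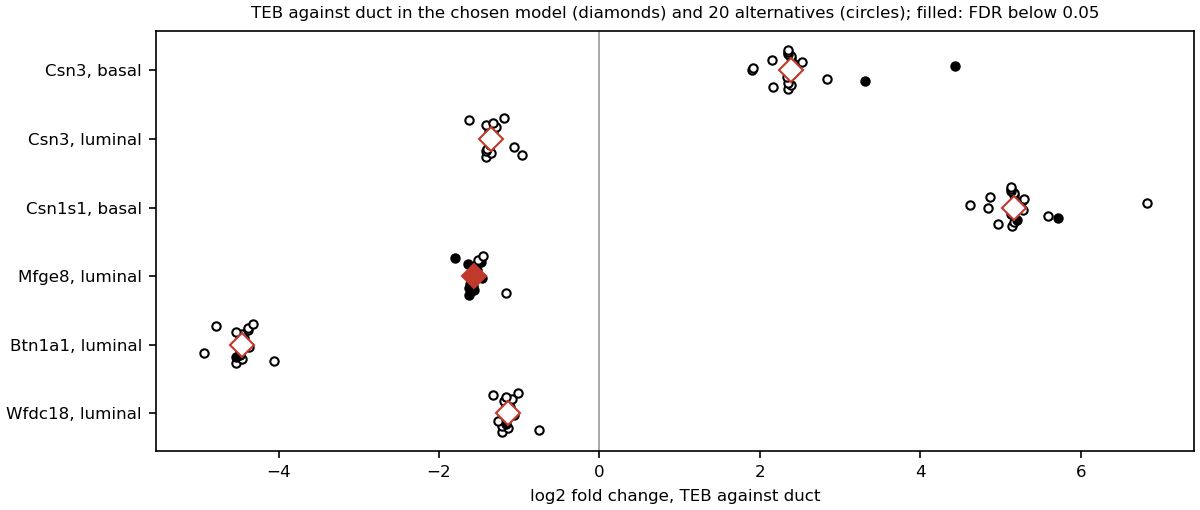
Log2 fold change from duct to TEB of 6 results in the chosen model (diamonds) and under 20 alternatives (circles), filled where FDR was below 0.05. No result crosses 0, and the Csn3 value in basal cells runs from 1.91 to 4.44.

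In the plot of alternatives, each row is 1 gene in 1 lineage, and the spread of its circles is the movement caused by another normalization, filter or test or by a left-out library. Mfge8 in luminal cells stayed between -1.80 and -1.16 and Btn1a1 between -4.93 and -4.06. Both were on the same side of 0 in every alternative, while their FDR crossed 0.05.

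Sums of the basal and luminal progenitor markers were also higher in luminal duct than in luminal TEB. The immune, fibroblast, adipocyte and endothelial sums stood above luminal TEB in luminal duct replicate 3 only. The basal markers summed to 80.7 to 222 CPM in luminal duct and 13.1 to 24.1 CPM in luminal TEB, a ratio of 7.55 between the means, and 5 of the 6 were called lower in luminal TEB. The immune markers had a ratio of 4.49, which rested on replicate 3. They summed to 11.3 CPM in luminal duct replicate 1, 64.1 CPM in replicate 3 and 5.40 to 13.9 CPM in luminal TEB. Mfge8, called in this comparison, was itself higher in basal cells. The 6 luminal progenitor markers summed to 745 and 862 CPM in luminal duct and to 376 to 478 CPM in luminal TEB, a ratio of 1.94 between the means, and all 6 had counts in each luminal library. None of these 6 passed the edgeR test in that comparison, and 1 had an unadjusted p under 0.05. The mature luminal markers Esr1, Pgr, Areg, Tspan13, Piezo2 and Prlr had a ratio of 1.34. The fibroblast markers (ratio 3.38) summed to 6.03 CPM in luminal duct replicate 1, 250 CPM in replicate 3 and 11.7 to 53.1 CPM in luminal TEB. The adipocyte markers (ratio 7.39) summed to 0 CPM in luminal duct replicate 1 and 75.1 CPM in replicate 3. For the endothelial markers (ratio 2.42) these sums were 1.02 and 26.2 CPM. The same ratio of luminal duct to luminal TEB means was taken for the members tested that had counts in both groups. It was 22.0 for Btn1a1, 3.65 for Lalba, 3.28 for Xdh, 2.95 for Mfge8, 2.55 for Csn3, 2.21 for Wfdc18 and 1.71 for Csn1s1. The markers' part in these values was not tested.

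Many regulators of milk genes differed between the lineages, in both directions. Of 17 listed regulators, 5 were lower and 7 higher in basal than in luminal cells in ducts, against 9.71% and 12.6% of all genes. In TEBs 7 were lower and 7 higher, against 11.8% and 13.2%. Prlr stood at 2750 and 1674 CPM in luminal duct, 1485 to 1721 in luminal TEB and 3.97 to 17.6 in basal cells, a difference of -7.67 ± 0.62 (SE, log2; edgeR FDR = 6.00e-06) in ducts and -7.44 ± 0.60 (edgeR FDR = 3.20e-06) in TEBs. Elf5 was lower in basal cells, with log2 differences of -6.44 ± 1.24 in ducts (edgeR FDR = 0.00265) and -5.83 ± 1.22 in TEBs (edgeR FDR = 0.00384). Jak2, Stat5a and Stat5b were lower too, with log2 differences of -1.68, -1.79 and -1.14 in ducts. Nr3c1, the glucocorticoid receptor, went the other way, with 1.72 ± 0.24 in ducts (edgeR FDR = 0.000306), and so did Nfib (1.40), Cebpb (1.46) and Id2 (1.57), transcriptional regulators all called higher in basal duct. Basal TEB, where Csn3 had its highest mean, held Prlr at 6.57 to 14.7 CPM and Stat5a at 67.4 to 81.6 CPM. The caveolin Cav1 was higher in basal cells by 2.28 and 2.43 (log2), and Tnfrsf11a, the receptor RANK, by 3.47 and 2.43.

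Of the 17 regulators, 2 changed between basal TEB and duct, Socs3 and Cish, against 1.32% of all genes. Both encode feedback inhibitors of cytokine signalling, as do Socs1 and Socs2, which were not called (edgeR FDR = 0.477 and 0.787). Socs3 held 904, 1125 and 1043 CPM in basal duct and 167, 318 and 233 CPM in basal TEB, a fall of -2.10 ± 0.25 (SE, log2; edgeR FDR = 0.00225). The call held in 19 of 20 alternatives and was lost with no composition normalization (edgeR FDR = 0.0506). Between basal duct and basal TEB the summed fibroblast markers went from 430 to 840 CPM down to 226 to 406 CPM, with no overlap. Taken singly, Dcn alone did not overlap, and 0 of the 6 fibroblast markers were called or had an unadjusted p under 0.05 by edgeR. Krt5, Krt14 and Krt17 were called lower in TEBs. Their part in the Socs3 and Cish values was not tested. In luminal cells Socs3 stood at 538 and 409 CPM in ducts and 421, 361 and 492 CPM in TEBs, with a change of -0.16 ± 0.27 (edgeR FDR = 0.811). The difference between the lineages was -1.94 ± 0.37 (edgeR FDR = 0.0490), and leaving out any library other than basal TEB replicate 2 and luminal duct replicate 1 ended that call (edgeR FDR = 0.0564 to 0.174). Cish fell in basal TEB by -1.57 ± 0.34 (edgeR FDR = 0.0496), from 116, 94.7 and 54.8 CPM to 17.1, 42.0 and 30.4 CPM. That call was kept in 8 of 20 alternatives and was lost without any 1 of basal duct replicates 1 and 2, basal TEB replicates 1 and 3 and the 3 luminal TEB libraries (edgeR FDR = 0.0816 to 0.206). In luminal cells 0 of 17 regulators passed by edgeR (5 had an unadjusted p under 0.05), where 1.41% of all genes did. Socs3 and Cish are known as targets as well as inhibitors of cytokine signalling.

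Other genes of milk secretion were listed as well, 20 in all. None of the 20 was called between basal TEB and duct by edgeR (2 had an unadjusted p under 0.05), and 1 was lower in luminal TEB (0.771% of all genes were). This was Tph1, the enzyme of serotonin synthesis, with 72.4 and 7.44 CPM in luminal duct against 0.112, 0.305 and 0.674 CPM in luminal TEB (-6.76 ± 1.28, edgeR FDR = 0.0386; -4.34, edgeR FDR = 0.236, without luminal duct replicate 1). Tph1 was called in 11 of 20 alternatives, and the call was also lost without basal TEB replicate 2 or 3 or any luminal TEB library (edgeR FDR = 0.0514 to 0.140). Between lineages, 1 was higher and 5 lower in basal cells in ducts, and 1 higher and 4 lower in TEBs, beside 22.3% and 25.1% of all genes called in either direction. Aqp5, a water channel, was lower in basal cells, with log2 differences of -9.12 in ducts and -8.54 in TEBs, and for B4galt1, the galactosyltransferase that works with Lalba, they were -1.32 and -0.89. Pthlh, the parathyroid hormone-related peptide, was higher in basal cells by 8.18 and 7.62 (log2).

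Likeness of pattern over the 11 libraries was described for a few members. For the 4 members whose mean log2 CPM was 1 or higher, the closest other member by Pearson's r of log2 CPM was Wfdc18 for Csn3 (r = 0.19), Xdh for Wfdc18 (r = 0.54), Csn3 for Mfge8 (r = -0.08) and Wfdc18 for Xdh (r = 0.54). Among 11581 genes, those most like Csn3 were Rnpep, Smim26 and Sfxn5 (r = 0.916, 0.908 and 0.900). Those most like Wfdc18 were Tgif1, Trp53inp1 and Prr13 (r = 0.992, 0.989 and 0.985), and those most like Mfge8 were Tns4, Cavin2 and Gpc6 (r = 0.996, 0.995 and 0.994). For Xdh they were Snhg14, Relb and Fam193a (r = 0.893, 0.893 and 0.890). The closest genes were picked from 11581 and the closest member from 3, so the sizes of these values cannot be set against each other. The libraries share their group structure, and no test is given.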

How the data were processed

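RNA-seq counts per gene were used as deposited. The authors aligned 80 bp paired-end reads from TruSeq RNA v2 libraries, a kit that does not mark strand, to mm10 and counted reads per Entrez gene with featureCounts (Rsubread, inbuilt RefSeq annotation), without normalization. Versions and the treatment of reads with several matches were not given in the sources used here. The 11 tables were assigned to 4 groups from the labels, and no column of values was left unused.

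Of 27179 genes, 17370 passed filterByExpr (minimum count 10, minimum total 15). TMM scaling and 1 quasi-likelihood model of the 4 groups were fitted in edgeR 4.0.16 (limma 3.58.1, DESeq2 1.42.0, R 4.3.3), with Benjamini-Hochberg adjustment over all genes tested and a threshold of 0.05. Library totals were 27989137 to 49221436 counts, at which 1 count was worth 0.0191 to 0.0577 CPM after scaling. The functions were tested on simulated data. Standard errors were taken from the fold change and its F statistic (log2 fold change over root F). Zeros were set against a floor of 3 counts.

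The members and lists were chosen with earlier results of these data known. All 10 members were named. From the lists of regulators and other secretory genes, those past the threshold between TEB and duct and the 4 with the largest lineage change in ducts and in TEBs (mean log2 CPM of at least 1) were named; Jak2, Stat5a, Stat5b, Nr3c1, Nfib, Cebpb, Id2, Socs1, Socs2, Ltf, Muc1, Spp1, Glycam1 and Kit were named after their values were seen. Alternatives were DESeq2 size factors, no composition normalization, no filter, the DESeq2 Wald test, limma voom, a replicate block, removal of mitochondrial genes, only the groups compared, and libraries left out.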

Additional observations from a re-analysis of the deposited data

Results flagged for a closer look

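Csn3 moved in opposite directions in the 2 lineages: every basal TEB library was above every basal duct library, and every luminal TEB library below both luminal duct libraries. The difference between the changes was 3.74 ± 1.08 (SE, log2) and did not pass the edgeR test (FDR = 0.164). It passed with DESeq2 (3.77, FDR = 0.0463), with limma voom (4.71, FDR = 0.0161) and without basal duct replicate 3 (5.79, edgeR FDR = 0.00156). These were the only 3 of 19 alternatives in which it passed. The basal minus luminal difference of Csn3 was -2.25 ± 0.80 in ducts (edgeR FDR = 0.0642) and 1.49 ± 0.73 in TEBs (edgeR FDR = 0.164). Without basal duct replicate 3 these values were -4.30 (edgeR FDR = 3.25e-05) and 1.49 (edgeR FDR = 0.00198). With all libraries, the difference in ducts passed with no filter (FDR = 0.0354), DESeq2 (FDR = 0.0439) and limma voom (FDR = 0.00152). It also passed with the replicate block given below. The difference in TEBs passed with limma voom (FDR = 0.0307) and with only the groups compared (FDR = 0.00603).

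Socs3 fell from duct to TEB in basal cells and differed from luminal cells in that change, by -1.94 ± 0.37 (SE, log2; edgeR FDR = 0.0490). The difference kept its direction in all 19 alternatives and passed in 6 of them. Its FDR was 0.174 without luminal TEB replicate 3, the highest of the alternatives.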

How the results depend on the processing

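The number of members called between basal TEB and duct was 0, and 1 by the DESeq2 Wald test and 2 by limma voom (0 to 1 with 1 library left out). In luminal cells it was 1, and 0 with no composition normalization, 3 by DESeq2, 3 by limma voom and 4 with only the groups compared (0 to 2). Between lineages it was 4 in ducts, and 7 by limma voom (3 to 6), and 3 in TEBs, and 5 by limma voom (2 to 5). For the difference between the TEB changes it was 0, and 3 by DESeq2 and 2 by limma voom (0 to 1). Without basal duct replicate 3, the counts were 1 in basal cells, 6 in ducts, 5 in TEBs and 1 for the difference. Of 708 alternative values for single genes, 618 kept direction and side of the threshold, 50 lost a call, 31 gained one and 9 changed sign, none of them called. A further 29 could not be given because a group held no count or the tool gave none. Csn1s1 in luminal cells became 0.18 without the 2 libraries highest in mitochondrial share and ran from -1.34 to 0.16 with 1 library left out. With no composition normalization, Csn1s1 between lineages in TEBs became -0.036 and the differences between TEB changes became -0.038 for Wfdc18 and -0.28 for Xdh. For Xdh that difference was also -0.032 by limma voom and -0.79 without the 2 mitochondrial-rich libraries (-0.82 to 0.90 with 1 left out). Leaving out composition normalization moved the median of all genes in luminal cells from 0.04 to 0.42; the cause of the other changes was not tested. The alternatives for Socs3, Cish and Tph1 and the bounds without a library were added after seeing the data.

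Same-numbered libraries of different groups correlated in their deviations by -0.07 to 0.16 over 15 pairs, with a median of 0.069. Libraries with other numbers correlated by -0.16 to 0.14 over 30 pairs, with a median of -0.026. The ranges overlapped and the labels stated no pairing, so the main model held none. Whether libraries of the same number shared mice was not tested. With a replicate block, members called were 0, 1, 5, 3 and 0 in the same order, Csn3 in ducts being gained (-2.60, FDR = 0.0442), and genes called over the whole table fell from 230 to 204, 245 to 125, 3878 to 3293, 4354 to 4030 and 77 to 46. With 2 luminal duct libraries, their spread rests on the shared model.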

Other observations

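Glycam1, a mucin-like protein of milk that endothelial cells of lymph nodes also make, was uneven between basal libraries. It stood at 39.8, 859 and 1.49 CPM in basal duct and at 0, 46.9 and 0 CPM in basal TEB, with at most 3.87 CPM in luminal libraries. Its change between basal TEB and duct was not called (edgeR FDR = 0.402). Basal duct replicate 2, the highest for Glycam1, also had the highest sums of the endothelial markers (175 CPM) and of the adipocyte markers (187 CPM). Fabp4 alone gave 179 CPM of the adipocyte sum, and the adipocyte markers Adipoq and Plin1 had no counts in that library.

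Ltf, the gene of the iron-binding milk protein lactoferrin, was high in luminal duct. It held 139 and 94.2 CPM there, against 5.16, 14.9 and 10.7 CPM in luminal TEB (-3.50 ± 1.04, SE, log2; edgeR FDR = 0.120). The luminal duct libraries lay above all others, as they did for Btn1a1. Basal cells were lower in ducts (edgeR FDR = 0.00103) and in TEBs (edgeR FDR = 0.00110). Spp1, the gene of osteopontin, stayed under 1 CPM in every library.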
